A study of Mus musculus with 3 samples.

Results

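The suppressive cytokine genes Il10, Ebi3, Il12a and Tgfb1 and the TGF-beta activator genes Itgb8 and Lrrc32 were followed through the mesenteric lymph node, the node that drains the intestine. They were chosen by symbol and make up 6 of the 32285 genes in the count tables, and all 6 were found. Mouse nodes were measured by single-cell RNA sequencing in droplets with 3' chemistry, in which each captured transcript is counted once as a unique molecular identifier (UMI). The title of the series names tolerance features of cell types after oral feeding as its subject, and the model food antigen is ovalbumin (OVA). All animals were fed by mouth for 4 weeks. The first group received 5 mM citrate buffer and is titled an untreated control in the labels, the second received 1 µg free OVA, and the third received 1 µg OVA in lyso-phosphatidylserine nanoparticles (LysoPS-OVA). Nodes of 6 animals were pooled into 1 library per group, and the labels do not state the strain, sex or age of the animals. No library of nanoparticles without OVA was analysed here, so the carrier and the antigen it holds cannot be told apart. With 1 library per group there is no replicate, no test was made and no p-value is given. Each 95% interval covers counting error only and describes 1 library, not the feeding. It also counts the UMIs of 1 cell as independent, so it is too narrow where a few cells hold many UMIs.

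Interleukin 10 is a secreted dimer that restrains antigen-presenting cells and effector T cells, and regulatory T cells are among its best known sources in the gut. Ebi3 encodes a chain with no activity known on its own: with the p28 chain encoded by Il27 it forms interleukin 27, and with the p35 chain encoded by Il12a it forms interleukin 35. The p35 chain also pairs with the p40 chain of Il12b to form interleukin 12, which is inflammatory, so an Il12a transcript alone does not tell which cytokine a cell makes. Tgfb1 encodes TGF-beta 1, which leaves the cell wrapped in a latency peptide and acts only once freed from it. Integrin beta 8, encoded by Itgb8, pairs with the integrin alpha V chain (Itgav) and frees TGF-beta from latency, and GARP, encoded by Lrrc32, holds latent TGF-beta 1 on the cell surface, in particular on regulatory T cells. In the intestine, integrin beta 8 on dendritic cells is known for its part in generating regulatory T cells.

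In the GRCm38 annotation Il10 (ENSMUSG00000016529) spans chr1:131019845-131024974 on the plus strand in 5 exons. Ebi3 (ENSMUSG00000003206) spans chr17:55952640-55957022 on the plus strand in 5 exons. Il12a (ENSMUSG00000027776) spans chr3:68690644-68698547 on the plus strand, and its 2 coding transcripts start in different exons. Tgfb1 (ENSMUSG00000002603) lies at chr7:25687002-25705077 on the plus strand in 7 exons, Itgb8 (ENSMUSG00000025321) at chr12:119158022-119238802 on the minus strand in 14 exons, and Lrrc32 (ENSMUSG00000090958) at chr7:98489283-98502181 on the plus strand in 3 exons. Ebi3 alone is overlapped by another gene, the antisense Gm16712, which had 3, 2 and 2 UMIs in migratory dendritic cells of citrate buffer, free OVA and LysoPS-OVA. Promoters were found for 4 of the 6 genes. The 250 bases before the start are shown for Ebi3 and for both starts of Il12a, since the chains they encode form one cytokine but their UMIs lay mostly in different cell classes. The strand is plus for each, the positions are those of RefSeq on GRCm38.p6, and capitals mark matches to the NF-kB letters GGGNNNNNCC.
Ebi3, chr17:55952373-55952622: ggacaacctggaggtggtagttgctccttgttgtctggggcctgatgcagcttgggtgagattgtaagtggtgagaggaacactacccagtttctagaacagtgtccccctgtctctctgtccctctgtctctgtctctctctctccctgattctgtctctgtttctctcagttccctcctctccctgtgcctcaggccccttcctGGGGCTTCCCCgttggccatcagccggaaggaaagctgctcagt
Il12a, first start, chr3:68690394-68690643: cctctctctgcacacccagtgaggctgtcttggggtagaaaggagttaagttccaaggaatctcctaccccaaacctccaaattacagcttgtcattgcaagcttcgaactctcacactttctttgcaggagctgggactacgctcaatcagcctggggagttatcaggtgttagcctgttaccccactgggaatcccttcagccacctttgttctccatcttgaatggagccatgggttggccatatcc
Il12a, second start, chr3:68691174-68691423: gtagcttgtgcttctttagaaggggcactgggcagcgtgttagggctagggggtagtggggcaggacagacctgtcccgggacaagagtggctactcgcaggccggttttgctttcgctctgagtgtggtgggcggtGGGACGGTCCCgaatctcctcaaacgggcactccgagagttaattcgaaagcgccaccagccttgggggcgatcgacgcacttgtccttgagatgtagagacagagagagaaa
The Ebi3 promoter held 2 overlapping matches, which begin 44 and 43 bases before the start. The second Il12a promoter, which lies between the first exons of the 2 transcripts, held 2 overlapping matches at 113 and 112 bases, and the first held none. These letters, searched on both strands, occur in 45.8% of the 32851 promoters of that length, so a match is common. Neither the AP-1 letters TGANTCA (6.75% of promoters) nor the interferon-response letters (GAAA, any 2 letters, GAAA, 2.98%) occurred in any of the 3. A match is a description of the letters and not of binding.

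Values given as 3 numbers follow the order citrate buffer, free OVA, LysoPS-OVA. The libraries held 96616683, 81559237 and 84089686 UMIs, with medians of 2577, 1492 and 3686 per barcode. Each table held between 20873 and 28927 barcodes, where 10000 cells were loaded. After filtering and removal of called doublets (17.4%, 7.15% and 7.74%), 21761, 21664 and 15982 barcodes were left, and pairs of libraries shared 98 to 121 of them. Clusters were named "-like" from marker transcripts and made without the 6 genes. The labels give the cell type as intestinal cells, and no cluster was named from the epithelial list. At a finer resolution 1 subcluster of migratory DC-like barcodes, led by Fabp5, met that list beside the list of its name. Regulatory T-like barcodes were 4.74%, 2.60% and 6.32% of those kept, with Foxp3, the transcription factor that defines regulatory T cells, at 108, 147 and 146 UMIs per 1000000 UMIs of the class (CPM) against 4.43 elsewhere. Migratory dendritic cell (DC)-like barcodes were 11.9%, 19.7% and 11.5%, with Fscn1 at 1564, 1813 and 1649 CPM against 22.0 elsewhere, but 79.5% to 83.7% of them had less than 0.5% of their UMIs from Malat1, a nuclear transcript of intact cells. B-like barcodes were 27.2%, 21.5% and 38.0%, with Cd79a at 1517 to 1860 CPM against 165. Y-linked transcripts (4 genes) summed to 251, 311 and 324 CPM in the regulatory T-like class and Xist to 470, 196 and 156, so the levels of sex-linked transcripts differed between the pools, and their part in the results was not tested.

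Summed over the libraries, each of the 6 genes had most of its UMIs in 1 of these 3 classes. The regulatory T-like class held 204 of 340 Il10 UMIs (60.0%), 992 of 1788 Itgb8 UMIs (55.5%) and 153 of 218 Lrrc32 UMIs (70.2%). Migratory DC-like barcodes held 1043 of 2017 Ebi3 UMIs (51.7%). B-like barcodes held 2268 of 2611 Il12a UMIs (86.9%) and 10535 of 20230 Tgfb1 UMIs (52.1%). The genes also differed in how widely they were spread. Lrrc32 stayed under 3 CPM outside the regulatory T-like class in every other class compared, whereas Tgfb1 was found at 36.5 CPM or more in each of the 11 classes in each library.

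**Figure D1:**
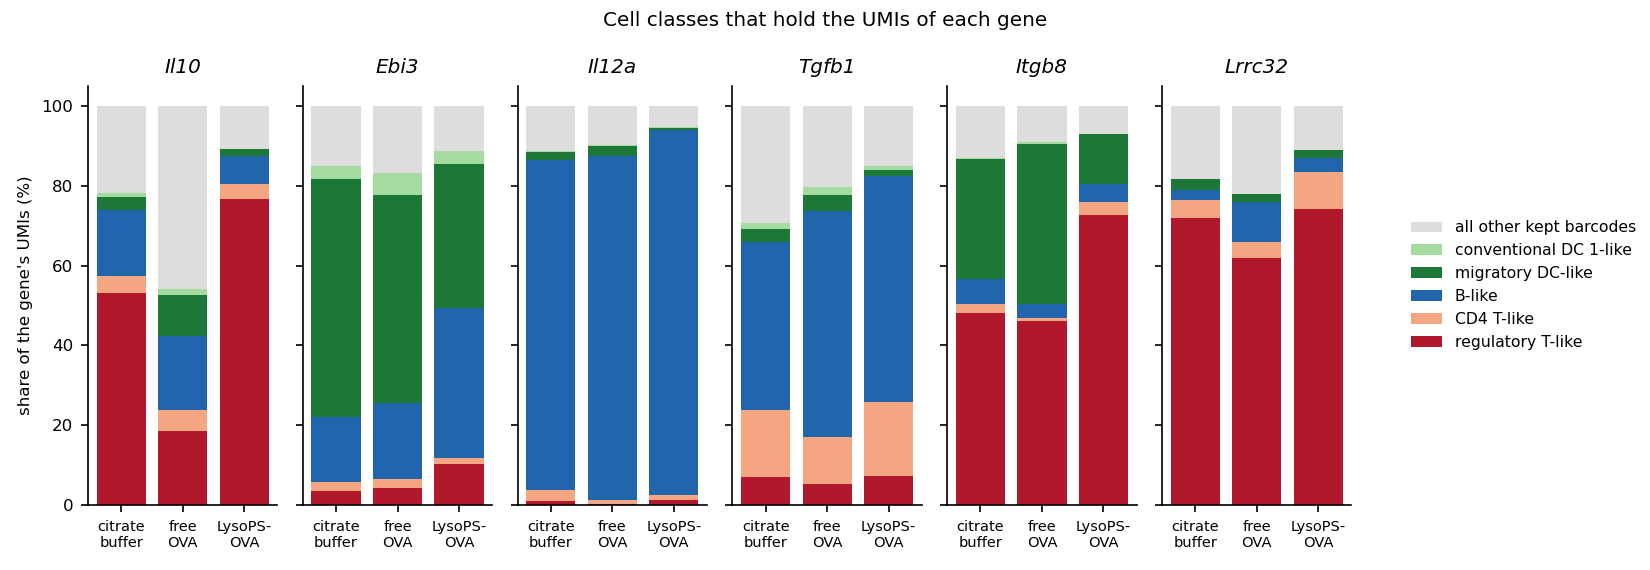
Share of each gene's UMIs (percent, vertical axis) held by each cell class in each of the 3 libraries, as stacked bars with 1 bar per library. Il12a is held mostly by B-like barcodes in all 3 libraries, while the largest holder of Il10 and of Ebi3 differs between libraries.

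**Figure D2:**
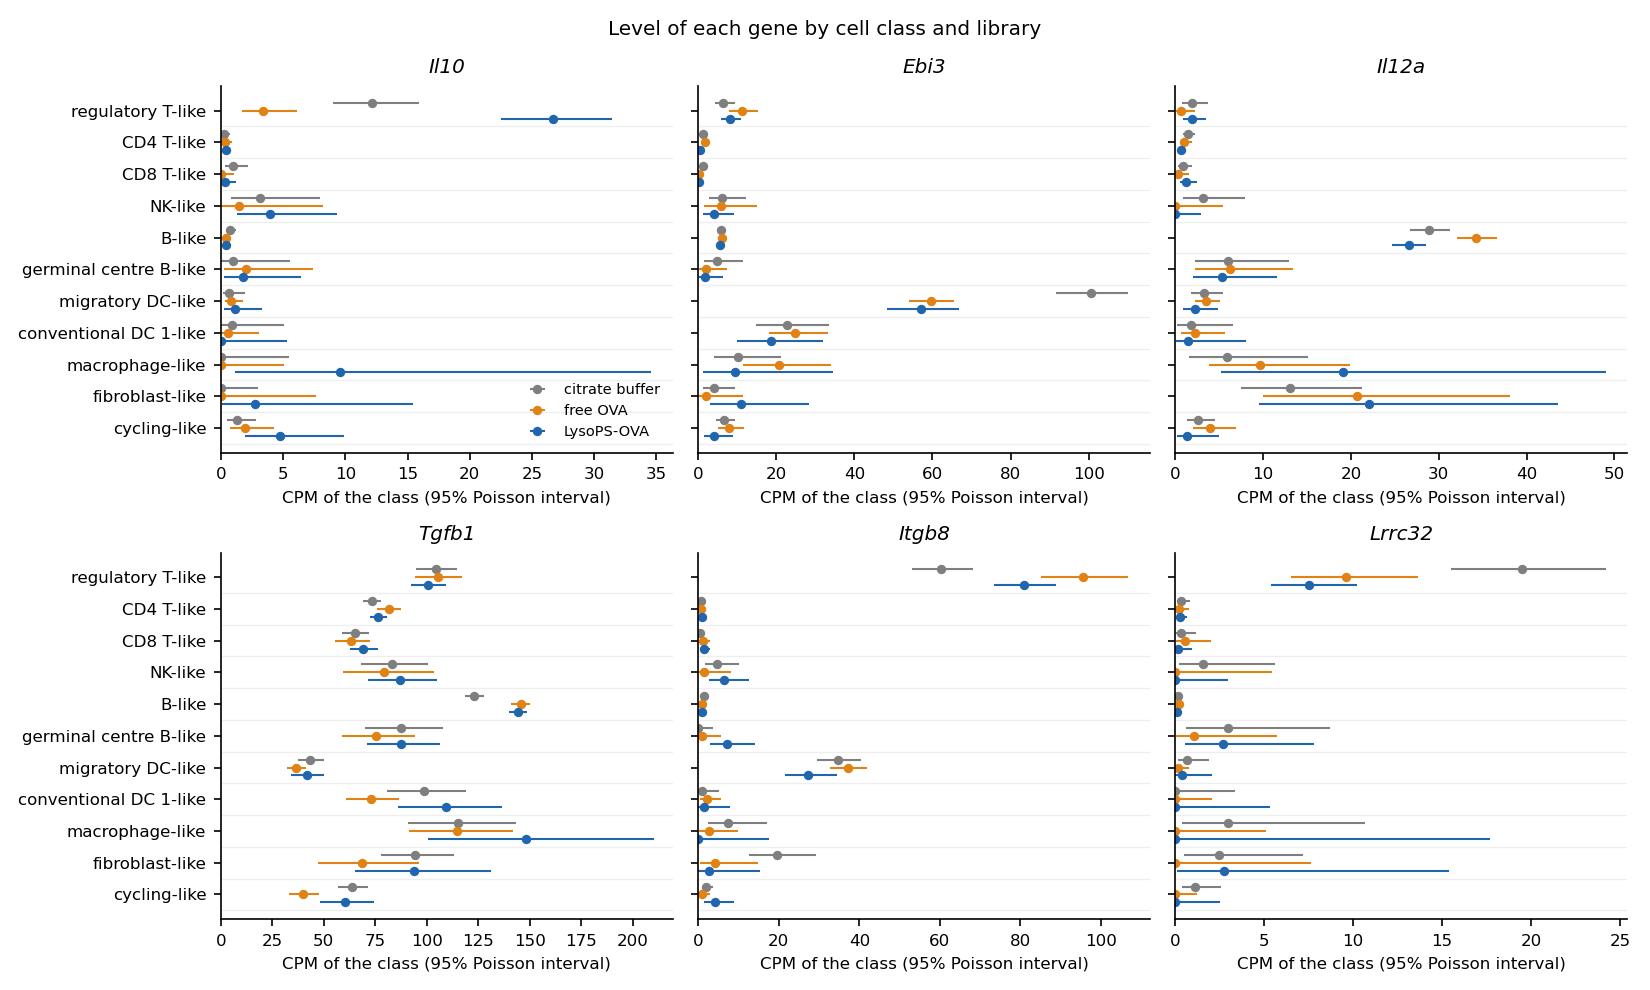
Level of each gene (CPM of the class, horizontal axis) in 11 cell classes (vertical axis), with 1 point per library and bars for the 95% exact Poisson interval, which covers counting error only. Il10, Itgb8 and Lrrc32 stand highest in the regulatory T-like class, Ebi3 in the migratory DC-like class, and Tgfb1 is present in every class.

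Il10 was highest in LysoPS-OVA and lowest in free OVA among regulatory T-like barcodes. There it had 51 UMIs in 18 of 1032 barcodes in citrate buffer, 11 UMIs in 8 of 563 with free OVA and 142 UMIs in 47 of 1010 with LysoPS-OVA. These give 12.1 CPM (9.02 to 15.9), 3.41 CPM (1.70 to 6.10) and 26.7 CPM (22.5 to 31.5). The 3 intervals do not overlap. The CPM ratio was 2.20 (1.59 to 3.10) for LysoPS-OVA against citrate buffer, 0.281 (0.132 to 0.547) for free OVA against citrate buffer and 7.83 (4.24 to 16) for LysoPS-OVA against free OVA. The median ratio of all genes tested in this class was 0.940, 0.940 and 1.003, so these are not shifts shared by all genes. Called doublets were more frequent in citrate buffer, and with them kept the free OVA ratio was 0.537 (0.306 to 0.907) and that between the OVA libraries 5.15 (3.23 to 8.64).

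The number of Il10-bearing barcodes and the UMIs per barcode moved differently. In citrate buffer the 5 highest barcodes held 54.9% of the class's Il10 UMIs, in free OVA 72.7% and in LysoPS-OVA 34.5%, and the highest single barcode held 10, 4 and 19 UMIs. Before depth was equalised, LysoPS-OVA had a larger share of barcodes with Il10 and not only higher ones. The ratio of the shares of barcodes with Il10 was 2.67 (1.56 to 4.56) against citrate buffer. For free OVA that ratio was 0.815 (0.357 to 1.86), an interval that includes 1, and its Il10-bearing barcodes held 1.38 UMIs on average compared with 2.83 in citrate buffer. Regulatory T-like barcodes of both OVA libraries were also deeper, with medians of 5351 UMIs in free OVA and 4841.5 in LysoPS-OVA compared with 3636.5. With the class taken instead as all barcodes with a Foxp3 and a Cd3 UMI, the CPM ratio of free OVA was 0.575 (0.291 to 1.10). Without the 5 highest barcodes of each library it was 0.170. Against free OVA the ratio for LysoPS-OVA was 3.27 (1.56 to 6.88) by share of barcodes, 4.62 (2.71 to 8.40) in the marker-defined class and 18.8 without the 5 highest barcodes of each library. Only 8 barcodes of the class held Il10 in free OVA, compared with 18 in citrate buffer and 47 in LysoPS-OVA. Leaving out 5 takes the largest part from free OVA by construction, so 0.170 and 18.8 follow in part from the trim itself.

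Depth was equalised by thinning each barcode to 1000 UMIs. A thinned Il10 UMI was then found in 1.08% (0.541 to 1.93) of regulatory T-like barcodes in citrate buffer. The share was 0.178% (0.0045 to 0.987) with free OVA and 2.18% (1.37 to 3.29) with LysoPS-OVA. At equal depth the interval of citrate buffer thus overlaps both others, which stand apart. Unthinned shares were 1.74%, 1.42% and 4.65%. CD8 T-like barcodes, used as a class with little Il10, gave 0.175% in citrate buffer, and 0 of 465 in free OVA, which allows a share of up to 0.645%, and 0 of 874 in LysoPS-OVA, which allows up to 0.343%. In free OVA that is 1 of 562 regulatory T-like barcodes against 0 of 465, too few to set the thinned levels apart. Unthinned, it is 8 of 563 against the same 0 of 465, with the CD8 T-like barcodes deeper at a median of 7416 UMIs. The Il10 level of regulatory T-like barcodes in free OVA, 3.41 CPM (1.70 to 6.10), was also above that of B-like barcodes there, 0.426 CPM (0.213 to 0.762). Outside the regulatory T-like class, B-like barcodes held 16, 11 and 13 Il10 UMIs at 0.742, 0.426 and 0.455 CPM. In free OVA the largest holder was an unnamed cluster led by AY036118, with 15 of 59 Il10 UMIs (25.4%) against 2 and 1 UMIs in the other libraries. That cluster made up 26.9% of the barcodes of free OVA and 7.10% and 3.86% of the others, and among whole-cell-like barcodes alone the regulatory T-like share of Il10 in free OVA was 33.3% in place of 18.6%.

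Within the regulatory T-like class, Il10 lay almost wholly in 1 of its 2 parts. A finer clustering, also made without these genes, divided the class into a subcluster led by Il2ra and Ikzf2, which encodes Helios, and a subcluster led by Maf, Ctla4 and Icos. Maf, a transcription factor known to act on the Il10 gene, was itself left out of the clustering, and stood at 116, 96.3 and 98.5 CPM in the first subcluster and at 874, 864 and 878 CPM in the second. The Maf-led subcluster held 50 of 51 Il10 UMIs of the class in citrate buffer, 11 of 11 with free OVA and 136 of 142 with LysoPS-OVA. Its Il10 level was 24.3 CPM, 7.37 CPM and 46.4 CPM, with a ratio of 1.91 (1.37 to 2.69) for LysoPS-OVA against citrate buffer and 0.303 (0.142 to 0.589) for free OVA against citrate buffer. The order of the libraries within the subcluster is the order seen in the class. This subcluster also met the list of follicular helper T markers, and Foxp3 UMIs were in 17.8%, 31.2% and 32.9% of its barcodes, compared with 33.0%, 49.8% and 45.9% in the Il2ra-led one.

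Foxp3 was found in 10 of 18 Il10-bearing regulatory T-like barcodes in citrate buffer, 6 of 8 with free OVA and 33 of 47 with LysoPS-OVA. Among barcodes of the class without Il10 it was found in 25.7%, 40.9% and 37.3%. Itgb8 was found in 9 of the 18, 3 of the 8 and 22 of the 47, where barcodes without Il10 had it in 11%, 18.6% and 15.1%. Both values were higher in Il10-bearing barcodes in each library, but the intervals for free OVA, 34.9% to 96.8% for Foxp3 and 8.52% to 75.5% for Itgb8, include the value of the rest. The barcodes compared had median depths of 4132, 5463 and 5156 UMIs against 3632, 5351 and 4835. With Lrrc32 the count was 0 of 18, which allows a share of up to 16.7%, 0 of 8, which allows up to 37.5%, and 1 of 47.

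**Figure D3:**
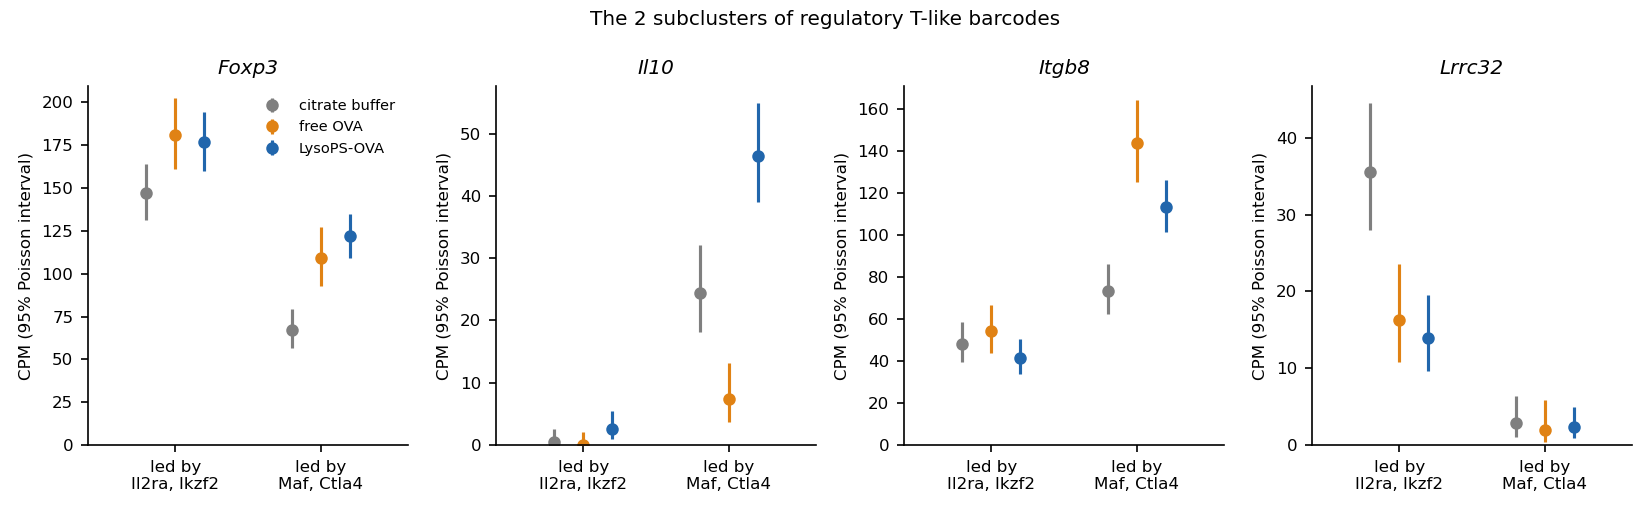
Level (CPM, vertical axis) of Foxp3, Il10, Itgb8 and Lrrc32 in the 2 subclusters of the regulatory T-like class, led by Il2ra and Ikzf2 and by Maf and Ctla4, with 1 point per library and 95% exact Poisson intervals. Il10 sits in the Maf-led subcluster and Lrrc32 in the Il2ra-led one, while Itgb8 is found in both.

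Ebi3 was highest in migratory DC-like barcodes in all 3 libraries, and there it was lower in both OVA libraries than in citrate buffer. The class had 461 UMIs in citrate buffer, 430 with free OVA and 152 with LysoPS-OVA, which are 101 CPM (91.6 to 110), 59.5 CPM (54.0 to 65.4) and 57.0 CPM (48.3 to 66.9). Both OVA libraries lie below citrate buffer without overlap of the intervals, and overlap each other. The ratios were 0.567 (0.469 to 0.682) for LysoPS-OVA and 0.592 (0.518 to 0.676) for free OVA against citrate buffer, and 0.958 (0.791 to 1.16) between the OVA libraries. The median gene of this class also had a low ratio in free OVA, 0.781, compared with 0.915 in LysoPS-OVA, and relative to it the Ebi3 ratios were 0.757 and 0.620. After thinning, Ebi3 was found in 8.83%, 5.06% and 5.01% of barcodes (unthinned 13.2%, 7.73% and 6.94%), with 397, 1347 and 792 barcodes left out as too shallow. In barcodes with Malat1 and ribosomal transcripts at the level of whole cells, which are few in this class, the ratios against citrate buffer were 0.722 (0.427 to 1.18) for LysoPS-OVA and 0.726 (0.486 to 1.08) for free OVA, so neither passed 1.5-fold there. With the class taken as all barcodes with a UMI of at least 3 migratory DC markers, the ratio between the OVA libraries was 0.590 (0.483 to 0.717).

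The lower Ebi3 level was found in the 3 subclusters of migratory DC-like barcodes with the highest Ebi3 level in citrate buffer. In the subcluster led by Ccl5, a chemokine, it was 116, 61.6 and 63.7 CPM. In the subcluster led by Aldh1a2, the enzyme that makes retinoic acid in gut dendritic cells, it was 102, 61.2 and 57.5 CPM, and in the Fabp5-led one, which also met the epithelial list, 108, 58.1 and 47.4 CPM. Ratios against citrate buffer in these 3 were 0.441 to 0.565 for LysoPS-OVA and 0.532 to 0.601 for free OVA, with intervals below 1. The smaller subclusters led by Tubb2b and by Fmnl2 gave LysoPS-OVA ratios of 0.559 (0.240 to 1.24) and 1.11 (0.582 to 2.10), whose intervals include 1.

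The share of Ebi3 held by migratory DC-like barcodes was 59.7%, 52.2% and 36.1%, and B-like barcodes held 16.2%, 18.9% and 37.5%. In B-like barcodes the level itself was 5.80, 6.05 and 5.53 CPM, with overlapping intervals. The larger B-like share in LysoPS-OVA thus came with more B-like barcodes and less Ebi3 in migratory DC-like ones. It also came with a smaller share of all UMIs in migratory DC-like barcodes, which was 6.495%, 10.65% and 3.871%. Conventional DC 1-like barcodes, the cross-presenting dendritic cells, had 22.8, 24.8 and 18.7 CPM. Regulatory T-like barcodes had 6.42 (4.23 to 9.34), 11.2 (7.82 to 15.5) and 8.08 CPM (5.85 to 10.9). Most of that lay in the Maf-led subcluster, at 8.28, 18.1 and 11.9 CPM, where the free OVA ratio against citrate buffer was 2.19 (1.15 to 4.27). Over all kept barcodes Ebi3 was 10.9, 12.2 and 6.12 CPM, and with the UMI share of each class held at that of citrate buffer it was 9.11 CPM in free OVA and 7.54 CPM in LysoPS-OVA. The higher overall level of free OVA thus followed its larger share of migratory DC-like UMIs. Among whole-cell-like barcodes alone the share of Ebi3 in migratory DC-like ones was 25.1%, 17.1% and 9.43%.

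**Figure D4:**
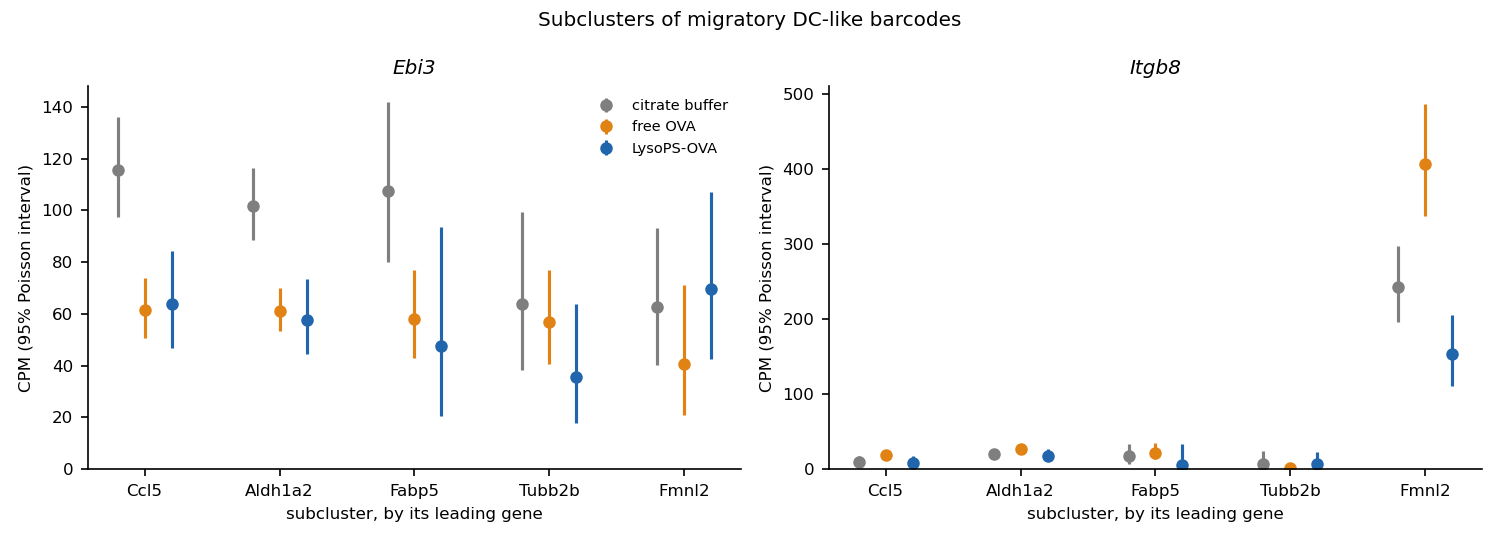
Level (CPM, vertical axis) of Ebi3 and Itgb8 in 5 subclusters of the migratory DC-like class, named by a leading gene, with 1 point per library and 95% exact Poisson intervals. Ebi3 is spread over all 5 and is lower in both OVA libraries in the Ccl5-, Aldh1a2- and Fabp5-led ones, while Itgb8 is concentrated in the Fmnl2-led one.

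Il12a was a B-like transcript in these nodes. B-like barcodes held 624, 884 and 760 Il12a UMIs, or 82.7%, 86.3% and 91.3% of all, at 28.9 CPM (26.7 to 31.3) in citrate buffer, 34.3 CPM (32.0 to 36.6) in free OVA and 26.6 CPM (24.7 to 28.5) in LysoPS-OVA. Free OVA was the highest and stood apart from both others, which overlap. The ratios were 0.919 (0.825 to 1.02) for LysoPS-OVA against citrate buffer, 1.18 (1.07 to 1.31) for free OVA against citrate buffer and 0.776 (0.703 to 0.856) between the OVA libraries. The direction for LysoPS-OVA against citrate buffer turned with the measure, to 1.16 (1.05 to 1.29) in a class taken by marker UMIs and 1.18 (1.05 to 1.31) by share of barcodes. B-like barcodes differed in depth, with median UMIs of 3324, 5392 and 4345, and the share with Il12a, 8.97%, 14.4% and 10.5%, came to 2.41%, 2.95% and 2.63% once thinned. Germinal centre B-like barcodes had less, with 5.97, 6.18 and 5.35 CPM. Migratory DC-like barcodes, a class in which p35 could meet the p40 chain, had 3.27, 3.46 and 2.25 CPM. Fibroblast-like barcodes had 13.1, 20.7 and 22.1 CPM from 16, 10 and 8 UMIs, and are not compared between libraries because 1 of their clusters was led by markers of other classes.

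Among the B-like subclusters, Il12a was not even. The 4 largest stood between 19.7 and 38.5 CPM, and their LysoPS-OVA ratios against citrate buffer, 0.830 to 1.34, all had intervals that include 1. A small subcluster led by Ifit3 and Oasl1, genes known to respond to interferon, stood apart, with 44.1 CPM in citrate buffer, 25.3 with free OVA and 17.5 with LysoPS-OVA from 34, 44 and 30 UMIs. Its ratios against citrate buffer were 0.574 (0.358 to 0.926) for free OVA and 0.397 (0.235 to 0.669) for LysoPS-OVA. At the finer resolution the largest B subcluster met the rule for leaving a cluster unnamed, and the share of Il12a held by named B-like barcodes was then 64.9%, 43.6% and 48.0%.

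Barcodes with both chains of interleukin 35 were few. Of barcodes with Ebi3, 16 of 625 in citrate buffer, 36 of 662 with free OVA and 25 of 367 with LysoPS-OVA also had Il12a, which is 2.56% (1.47 to 4.12), 5.44% (3.84 to 7.45) and 6.81% (4.46 to 9.89). Barcodes without Ebi3 had Il12a in 3.04%, 3.62% and 4.37%, so Il12a was about as frequent beside Ebi3 in citrate buffer and more frequent in both OVA libraries. Most of them were B-like, with 13, 34 and 23 barcodes, whereas migratory DC-like barcodes gave 2 of 342, 1 of 330 and 0 of 127, the last of which allows a share of up to 2.36%. Of all barcodes with Ebi3, B-like ones were 110 of 625, 137 of 662 and 146 of 367, so the mix of classes differed between the libraries. Within the B-like class Il12a was in 11.8% (6.45 to 19.4), 24.8% (17.8 to 32.9) and 15.8% (10.3 to 22.7) of barcodes with Ebi3. Barcodes of the class without Ebi3 had it in 8.92%, 14.1% and 10.4%, values that the intervals of citrate buffer and LysoPS-OVA include. The B-like barcodes with Ebi3 were deeper, with medians of 4512, 6429 and 5319 UMIs against 3295, 5359 and 4318, and the part of depth in this was not tested. Barcodes in which both chains were seen thus followed Il12a into the B-like class and not Ebi3 into the dendritic cells. At the depth of these libraries a barcode with 1 chain seen may hold transcripts of the other.

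Tgfb1, with the most UMIs of the 6, stayed under 1.5-fold between the libraries in its main class. In B-like barcodes it was 123 CPM (118 to 128) in citrate buffer, 146 CPM (141 to 150) with free OVA and 144 CPM (140 to 149) with LysoPS-OVA, from 2656, 3755 and 4124 UMIs. Both OVA libraries lie above citrate buffer and overlap each other. The ratios were 1.17 (1.12 to 1.23) and 1.18 (1.12 to 1.24) for LysoPS-OVA and free OVA against citrate buffer, and 0.991 (0.948 to 1.04) between the OVA libraries, the last of which was 1.06 (1.02 to 1.11) with the class taken by marker UMIs. The share of B-like barcodes with Tgfb1 was 32.8%, 48.4% and 44.4%, but 11.8%, 13.6% and 13.2% at equal depth. Macrophage-like barcodes had 115, 115 and 148 CPM, regulatory T-like 105, 105 and 101, conventional DC 1-like 98.4, 72.9 and 109, CD4 T-like 73.5, 81.5 and 76.5, CD8 T-like 65.3, 63.4 and 69.3, and migratory DC-like barcodes, the lowest of the 11 classes over the 3 libraries together, 43.4, 36.5 and 41.7. Over the 3 libraries together the order of the 11 classes began with B-like at 139 CPM, macrophage-like at 119, regulatory T-like at 103, fibroblast-like at 88.2 and conventional DC 1-like at 87.7. Neighbours among these 5 overlap in their intervals in each library. At the finer resolution the share of Tgfb1 held by named B-like barcodes was 33.8%, 31.2% and 30.5%, compared with 42.0%, 56.8% and 56.5%. The 2 regulatory T-like subclusters held Tgfb1 at 111, 89.9 and 98.5 CPM and at 98.8, 121 and 102 CPM, with every ratio interval against citrate buffer including 1.

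Itgb8, which frees TGF-beta from latency, had 2 main sources, and the larger stood above citrate buffer in both OVA libraries. Regulatory T-like barcodes had 60.4 CPM (53.2 to 68.3) in citrate buffer, 95.5 CPM (85.1 to 107) in free OVA and 80.8 CPM (73.4 to 88.8) in LysoPS-OVA, from 254, 308 and 430 UMIs. Both OVA libraries stand above citrate buffer without overlap. The ratio was 1.58 (1.34 to 1.88) for free OVA, 1.34 (1.14 to 1.57) for LysoPS-OVA and 0.846 (0.729 to 0.983) between them. Migratory DC-like barcodes, the other source, had 34.7, 37.1 and 27.4 CPM from 159, 268 and 73 UMIs, with ratios against citrate buffer of 1.07 (0.875 to 1.31) for free OVA and 0.789 (0.590 to 1.05) for LysoPS-OVA, whose intervals include 1, and 0.739 (0.562 to 0.960) between the OVA libraries. Those with at least 10% ribosomal UMIs had 21.3, 24.0 and 22.1 CPM, with overlapping intervals, and the 43, 114 and 41 below that had 316, 471 and 100 CPM. The regulatory T-like class held 48.1%, 46.0% and 72.8% of all Itgb8 and the migratory DC-like class 30.1%, 40.1% and 12.4%, so LysoPS-OVA had the largest share in regulatory T-like barcodes. Among whole-cell-like barcodes the regulatory T-like share was 63.5%, 75.5% and 76.8%, and free OVA then stood beside LysoPS-OVA.

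The higher Itgb8 of the OVA libraries was seen in the Maf-led subcluster, the one that held Il10. There Itgb8 was 73.5, 144 and 113 CPM, with ratios against citrate buffer of 1.96 (1.58 to 2.43) for free OVA and 1.54 (1.27 to 1.88) for LysoPS-OVA. Foxp3 was also higher there, with ratios of 1.625 (1.287 to 2.053) and 1.813 (1.485 to 2.222), and its part in the Itgb8 level was not tested. In the Il2ra-led subcluster Itgb8 was 48.2, 54.3 and 41.4 CPM. Its ratios there were 1.13 (0.841 to 1.5) and 0.859 (0.644 to 1.14), whose intervals include 1. The difference between the subclusters was not tested. Itgb8 and Il10 therefore did not move alike: in the Maf-led subcluster free OVA was highest for Itgb8 and lowest for Il10. A few barcodes again held many UMIs, up to 15, 21 and 20, and without the 5 highest of each library the class ratios were 1.46 and 1.42. The share of barcodes with Itgb8 was 11.7%, 18.8% and 16.5%, and 5.30%, 4.63% and 8.33% at equal depth, so free OVA was not above citrate buffer there, while B-like barcodes gave 0.275%, 0.152% and 0.0994%. Barcodes with under 10% ribosomal UMIs, which were 39.1%, 21% and 15% of the class, had Itgb8 at 92.7, 207 and 223 CPM, compared with 49.1, 82.3 and 67.2 in the others. The order of the libraries thus differs between these 2 sets for the OVA libraries only.

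Among migratory DC-like barcodes, Itgb8 was concentrated in the small Fmnl2-led subcluster. Its 73, 61 and 48 barcodes held 93, 120 and 44 UMIs, which are 58.5%, 44.8% and 60.3% of the Itgb8 of the class. The level was 242 CPM (196 to 297) in citrate buffer, 407 CPM (337 to 486) with free OVA and 153 CPM (111 to 205) with LysoPS-OVA. Each value is above that of either regulatory T-like subcluster in the same library, with overlapping intervals for the Maf-led one in LysoPS-OVA. Free OVA was the highest, with a ratio of 1.68 (1.27 to 2.23) against citrate buffer, and LysoPS-OVA the lowest, with 0.631 (0.430 to 0.912). The larger Aldh1a2-led subcluster had 20.3, 27.0 and 17.7 CPM, and the Ccl5-led one 9.64, 18.2 and 7.96 CPM. In the Fmnl2-led subcluster 57.5%, 63.9% and 79.2% of barcodes had under 10% ribosomal UMIs, and the part of that in the level was not tested.

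Lrrc32, the gene of the surface carrier GARP, was lower in both OVA libraries than in citrate buffer. Regulatory T-like barcodes had 82 UMIs in 68 barcodes in citrate buffer, 31 UMIs in 28 with free OVA and 40 UMIs in 30 with LysoPS-OVA, which are 19.5 CPM (15.5 to 24.2), 9.61 CPM (6.53 to 13.6) and 7.52 CPM (5.37 to 10.2). Citrate buffer stands above both others, which overlap. The ratios were 0.386 (0.258 to 0.570) for LysoPS-OVA, 0.493 (0.315 to 0.754) for free OVA and 0.782 (0.477 to 1.29) between them. No few barcodes set this, since the highest held 4, 2 and 3 UMIs. By share of barcodes the ratio was 0.451 (0.296 to 0.687) for LysoPS-OVA and 0.755 (0.492 to 1.16) for free OVA, so the free OVA difference was smaller by that measure. Depth was not equalised there, and median UMIs were 3636.5, 5351 and 4841.5. Thinned shares were 2.55% (1.675 to 3.72), 1.25% (0.502 to 2.55) and 0.595% (0.219 to 1.29). At equal depth the interval of free OVA thus overlaps both others, and that of LysoPS-OVA lies below citrate buffer. Thinned B-like barcodes gave 0.0172%, 0.0217% and 0 of 6038, which allows up to 0.0497%.

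Within the class Lrrc32 lay mostly in the subcluster that held little Il10. The Il2ra-led subcluster held 76 of 82, 28 of 31 and 33 of 40 of its UMIs, at 35.6, 16.3 and 13.9 CPM, and the Maf-led one 2.92, 2.01 and 2.39 CPM. In the Il2ra-led subcluster the ratios against citrate buffer were 0.392 (0.252 to 0.597) for LysoPS-OVA and 0.459 (0.287 to 0.717) for free OVA. Foxp3 in the same subcluster stood higher in the OVA libraries, at 147, 181 and 177 CPM. Its cargo Tgfb1 was found in 26 of 68, 12 of 28 and 15 of 30 barcodes with Lrrc32, and in 30.1%, 35.9% and 34.9% of those without. B markers in the regulatory T-like class, with 9 of 9 genes detected in each library, summed to 733, 633 and 522 CPM, which follows the order of Lrrc32 across the libraries, and their part in it was not tested. Barcodes with at least 10% ribosomal UMIs gave Lrrc32 at 20.2, 7.98 and 8.24 CPM. In the 403, 118 and 151 barcodes below that it was 17.4 CPM (10.5 to 27.2) in citrate buffer and 23.3 CPM (10.1 to 45.9) with free OVA, from 19 and 8 UMIs, so free OVA was not lower there, and LysoPS-OVA had 0 UMIs (0 to 7.90 CPM).

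**Figure D5:**
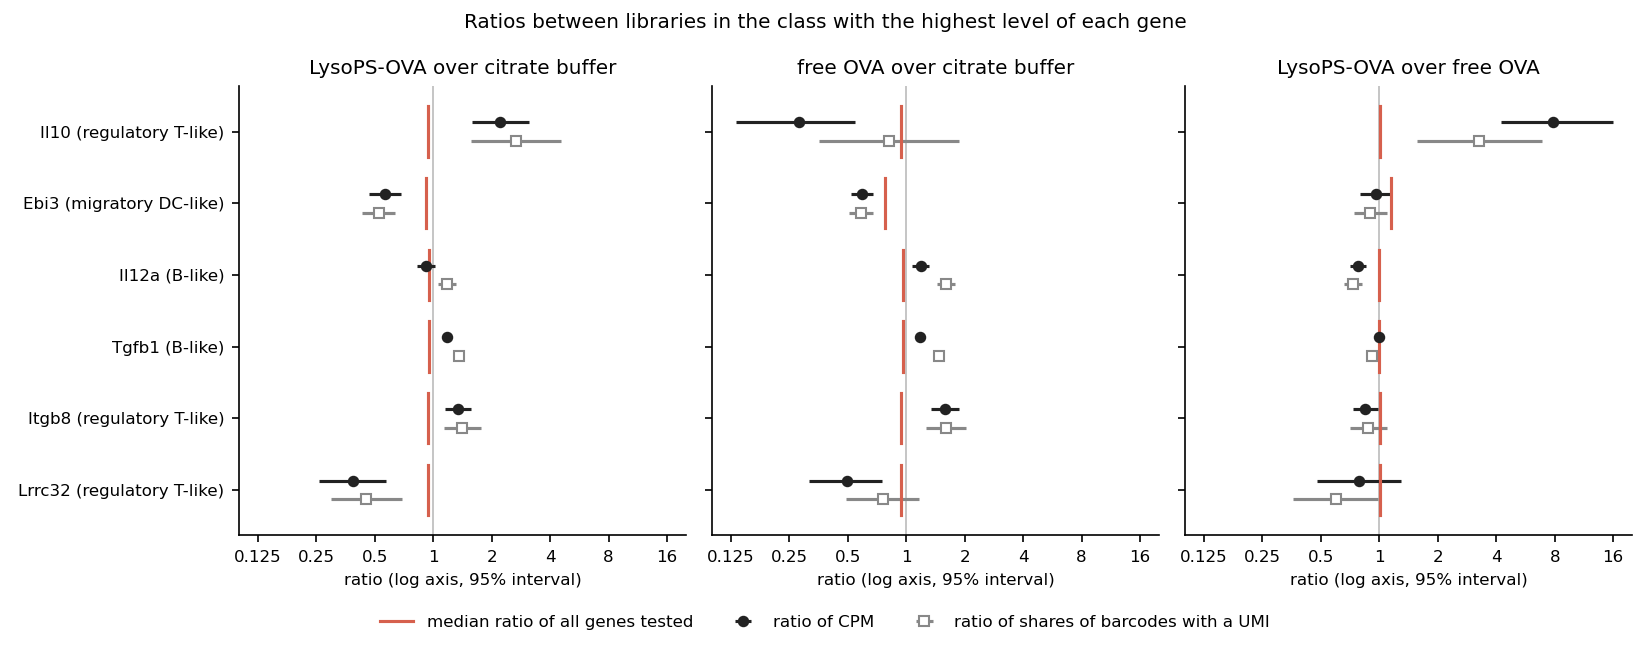
Ratio between libraries (log axis) of each gene in its main class for the 3 pairs of libraries: filled points are CPM ratios and open squares are ratios of the shares of barcodes with a UMI, each with its 95% interval, and red ticks mark the median ratio of all genes tested in that class. Il10 lies above the ticks and Lrrc32 and Ebi3 below them for LysoPS-OVA against citrate buffer. Tgfb1 also lies above its tick there, at 1.17 by CPM and 1.36 by share of barcodes, both under 1.5-fold.

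Side by side, the 6 genes did not move as a group. A ratio past 1.5-fold in either direction was counted. For LysoPS-OVA against citrate buffer 3 of the 6 passed it in their main class, Il10 higher and Ebi3 and Lrrc32 lower. Of all genes tested in the same comparison, 13.9% passed in the regulatory T-like class, 16.7% in the migratory DC-like class and 14.7% in the B-like class. For free OVA against citrate buffer 4 passed, Itgb8 higher and Il10, Ebi3 and Lrrc32 lower, with 13.4%, 29.5% and 14.4% of all genes. For LysoPS-OVA against free OVA only Il10 passed, with 8.03%, 19.5% and 7.86% of all genes. The first 2 comparisons share the citrate buffer library. Over all kept barcodes, Il10 was 1.36, 0.870 and 2.69 CPM and Lrrc32 1.62, 0.737 and 0.785 CPM, and with class shares held at those of citrate buffer they were 0.8 and 2.51 CPM and 0.792 and 0.723 CPM in the OVA libraries, so these differences remained within classes. For Tgfb1, 89.6, 97.4 and 106 CPM came to 94.3 and 96.7 CPM in the OVA libraries, and Il12a, 10.7, 15.1 and 12.1 CPM, to 12.4 and 9.76 CPM.

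In the regulatory T-like class, genes that act on the Il10 gene were the pathway list with most members higher in LysoPS-OVA. Of its 10 genes, all tested there, 3 were past 1.5-fold higher and 0 lower against citrate buffer, with a median log2 ratio of 0.04 beside -0.09 for all genes. The share of all genes past that mark in the class was 13.9% in this comparison. It was 13.4% for free OVA against citrate buffer and 8.03% for LysoPS-OVA against free OVA. Bhlhe40, known to repress Il10 in T helper cells, was 32.0 CPM in LysoPS-OVA and 12.6 in citrate buffer, a ratio of 2.54 (1.85 to 3.52), and 18.6 CPM in free OVA. Prdm1, which encodes Blimp-1 and is known to promote Il10, was 24.8 and 12.1 CPM, a ratio of 2.05 (1.47 to 2.89), and 13.6 CPM in free OVA. The third, Nfil3, named here after its value was seen, had a ratio of 1.51 (0.881 to 2.66). In free OVA against citrate buffer Nfil3 was higher at 1.84 (1.03 to 3.33), and Ahr, the aryl hydrocarbon receptor, at 0.617 (0.465 to 0.812) and Irf4, a transcription factor of activated T cells, at 0.612 (0.481 to 0.774) were lower. For LysoPS-OVA against free OVA 3 were higher and 0 lower: Prdm1 at 1.82 (1.28 to 2.62), Bhlhe40 at 1.72 (1.27 to 2.35) and, named after its value was seen, Irf4 at 1.6 (1.27 to 2.02). Of the 8 genes of the interleukin 10 receptor and its signalling, 0 were past 1.5-fold in the regulatory T-like class in LysoPS-OVA against citrate buffer, and 1 was lower in free OVA, Bcl3 at 0.633 (0.478 to 0.831).

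Of the 8 listed partners and receptors of the interleukin 12 family, 5 were tested in the regulatory T-like class, and 2 receptor chains were past 1.5-fold lower, with 0 higher, in each OVA library against citrate buffer. Of all genes there, 13.9% passed in LysoPS-OVA and 13.4% in free OVA, and the median log2 ratio of the list was -0.28 and -0.32 beside -0.09 for all genes. Il23r, a receptor chain for interleukin 23, was 19.7, 12.1 and 6.39 CPM, with a ratio of 0.324 (0.211 to 0.488) for LysoPS-OVA and 0.613 (0.408 to 0.907) for free OVA. Il12rb2, the signalling chain for interleukins 12 and 35, was 7.84, 1.55 and 2.63 CPM, with a ratio of 0.336 (0.166 to 0.644) for LysoPS-OVA and 0.198 (0.0603 to 0.510) for free OVA. In migratory DC-like barcodes, where Ebi3 lay, 5 of the 8 were tested, with 0 higher and 2 lower in each OVA library against citrate buffer. Of all genes in that class, 16.7% passed in LysoPS-OVA and 29.5% in free OVA. Il12b was lower in that class in LysoPS-OVA, at 16.5 CPM compared with 26.6 in citrate buffer, a ratio of 0.620 (0.429 to 0.882). Il27, the partner of Ebi3 in interleukin 27, had a ratio of 0.860 there and 0.740 in free OVA, under the 1.5-fold mark in both.

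Of 15 listed genes for the other TGF-beta isoforms, latency and activation, 4 could be tested in the regulatory T-like class for LysoPS-OVA against citrate buffer, and 0 were higher and 2 lower. Furin, the protease that cuts the TGF-beta precursor, was 30.2 CPM in citrate buffer, 16.7 with free OVA and 19.2 with LysoPS-OVA, with ratios of 0.555 (0.396 to 0.769) and 0.635 (0.485 to 0.831). Mmp14, a membrane protease, was 4.52 CPM in citrate buffer and 2.26 in LysoPS-OVA, a ratio of 0.5 (0.221 to 1.08). Itgav, the partner chain of Itgb8, was 96.0, 102 and 118 CPM, with a ratio of 1.23 (1.09 to 1.40) for LysoPS-OVA, on the side of Itgb8 but smaller. Of 10 receptors and SMADs, 7 were tested and 0 passed in either OVA library, with a median log2 ratio of -0.25 in LysoPS-OVA and -0.36 in free OVA beside -0.09 for all genes. Of 12 listed TGF-beta targets, 11 were tested, with 2 higher and 1 lower in LysoPS-OVA and 2 higher and 0 lower in free OVA. For each of these lists the share of all genes past 1.5-fold in the class was 13.9% in LysoPS-OVA and 13.4% in free OVA. Tgif1, which encodes a corepressor of SMADs, was higher in both, at 1.84 (1.43 to 2.39) and 1.6 (1.20 to 2.15), and Smurf2, a ubiquitin ligase that limits the pathway, was lower in LysoPS-OVA at 0.627 (0.574 to 0.686). Bhlhe40, which is also on the list of Il10 regulators, was the other target past 1.5-fold higher in LysoPS-OVA.

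In migratory DC-like barcodes of free OVA, 4 of 8 tested receptors and SMADs were past 1.5-fold lower than citrate buffer, among them Tgfbr3, a co-receptor, at 0.527 (0.386 to 0.718) and Smad7, an inhibitor of the pathway, at 0.554 (0.432 to 0.710). Tgfbr3 was far higher in CD4 T-like barcodes, at 196 to 208 CPM compared with 20.7 and 10.9 CPM here, and the 9 CD4 T markers, all detected, summed to 772, 370 and 548 CPM in the migratory DC-like class, and their part in the result was not tested. That is in a class where 29.5% of all genes passed and the median log2 ratio of all genes was -0.36, beside -0.58 for the list. In LysoPS-OVA against citrate buffer 0 of 8 passed, where 16.7% of all genes passed in the class. In B-like barcodes, the main holders of Tgfb1 and Il12a, 0 of the listed isoform, latency and activation genes tested passed in either OVA library against citrate buffer, of 4 tested in LysoPS-OVA and 5 in free OVA. Of the receptor and SMAD list there, 1 of 8 was lower in LysoPS-OVA, Eng, a co-receptor, at 0.493 (0.251 to 0.944), and 2 of 8 in free OVA, Eng at 0.225 (0.0825 to 0.533) and Tgfbr3 at 0.656 (0.542 to 0.794), where 14.7% and 14.4% of all genes passed. The CD4 T markers summed to 387, 118 and 177 CPM in the B-like class, with 9 of 9 detected in each library, and their part in these values was not tested.

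The genes whose levels went most like those of each member were found over 33 points, 11 classes in 3 libraries, by Pearson's r of log2(CPM + 10). Points of 1 library share its depth and pool, and points of 1 class its cell type, so r is a description. Il10 was above the 10 CPM added only in regulatory T-like barcodes of citrate buffer and LysoPS-OVA. Among the classes compared between libraries, Lrrc32 was above it only in those of citrate buffer, so r of both genes rests on few points. For Il10 the closest were Lag3 at 0.775, Prg4 at 0.723 and Nrn1 at 0.718, and for Itgb8 Tnfrsf4 at 0.872, Ikzf4 at 0.864 and Tnfrsf9 at 0.843. For Lrrc32 they were Grhl1 at 0.902, Nav2 at 0.868 and Olfr372 at 0.851. Ebi3 was followed by Fbxo6 at 0.936, Dok1 at 0.931 and Apol7c at 0.929, and Il12a by Gapt at 0.946, Arhgap24 at 0.938 and Cacna1i at 0.937. Tgfb1 was closest to Ly6e at 0.877, followed by Soat1 at 0.822 and Man2b1 at 0.811.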

How the data were processed

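Mesenteric lymph node cells of 3 feedings were profiled in 3 libraries, 1 per group, with the 10x Genomics 3' v3.1 kit, per the labels' protocols. The deposited values are raw counts of UMIs per gene and barcode, which the authors made with Cell Ranger 7.2.0; the submitters' processing notes name the build mm10. Neither the annotation version nor the intron setting is stated in the labels. The 6 genes, the marker lists and the pathway lists were chosen with earlier results of these data known. The count tables have 3 value columns, 1 per library, and none was left unmapped.

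Barcodes were kept at 300 or more genes and 10% or fewer mitochondrial UMIs, and doublets were called per library with Scrublet at an expected 0.8% per 1000 barcodes and removed. The libraries were clustered together on 2000 variable genes, without immunoglobulin, T cell receptor, member and pathway genes, with 30 components, 15 neighbours and Leiden resolution 1.0 (2.0 for subclusters). A cluster took a class name from 3 or more markers that exceeded the rest by 1 log2 and a marker median above 0.5. Whole-cell-like barcodes have at least 0.5% Malat1 and at least 10% ribosomal UMIs.

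For each class of each library the UMIs of a gene were divided by all UMIs of the class (CPM). Intervals are 95%: exact Poisson for CPM, conditional exact binomial for ratios, Clopper-Pearson for shares and Katz for ratios of shares. Where a share is 0, the share it is said to allow is 3 over the barcodes counted. That limit differs from the Clopper-Pearson one, which for Il10 in CD8 T-like barcodes is 0.790% in free OVA and 0.421% in LysoPS-OVA. A gene was tested for the 1.5-fold mark with at least 30 UMIs in both libraries together, with 0 set to 3 UMIs. PCR duplicates are removed by UMIs, and intervals and floors cover counting error only. Names followed a rule: all 6 members, up to 2 genes with the highest and 2 with the lowest ratio per list, comparison and class, and the 3 genes most like each member with at least 200 UMIs. On simulated counts for the 3 comparisons, 4-fold changes were called in 100% of cases in each class. The counts were drawn with Poisson error alone, without differences between pools of animals or UMIs clumped in a few cells. Their rates therefore cover counting error only and are not the error rates of the real comparisons. In the regulatory T-like class (10302 to 10703 genes) 2-fold changes were called in 93% to 99% and unchanged genes in 4.02% to 4.51%, in the migratory DC-like class (9388 to 10157 genes) in 90% to 95% and 4.94% to 7.32%, and in the B-like class (13360 to 13377 genes) in 97% and 2.69% to 3.16%.

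Alternatives covered the clustering resolution, kept doublets, at most 5% mitochondrial UMIs, whole-cell-like barcodes, classes by marker UMIs, other CPM means and denominators, and, chosen after seeing the data, shares of barcodes and leaving out the 5 highest barcodes. The promoters come from RefSeq on GRCm38.p6 and gene positions from GENCODE release 21. Clustering used scanpy 1.11.5, igraph 0.11.9 and scikit-learn 1.9.0, statistics scipy 1.17.1, tables pandas 2.3.3 and numpy 2.4.6, and plots matplotlib 3.10.9, in Python 3.11.15.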

Additional observations from a re-analysis of the deposited data

Results flagged for a closer look

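Ebi3 differed in direction between classes for free OVA against citrate buffer: the CPM ratio was 1.74 in regulatory T-like barcodes and 0.592 in migratory DC-like barcodes. Tgfb1 also differed in direction for free OVA against citrate buffer, with ratios of 1.18 in B-like and 1.11 in CD4 T-like barcodes, and 0.740 in conventional DC 1-like and 0.623 in cycling-like barcodes. In each case the counting intervals of the ratios lie on opposite sides of 1, which does not take the median gene of the class into account. That median log2 ratio was -0.36 in migratory DC-like and -0.19 in conventional DC 1-like barcodes. Relative to the median gene of each class, in the same orders, the ratios were 1.851 and 0.757 for Ebi3. For Tgfb1 they were 1.225, 1.175, 0.845 and 0.709. With 1 library per group the difference between classes was not tested.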

How the results depend on the processing

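No paired analysis was possible because each group is 1 library, and for the same reason no replicate could be left out. Of 162 alternative values of the 18 class ratios, 139 moved by less than their interval, and none of the ratios past 1.5-fold turned direction. Of the ratios whose interval includes 1, 3 crossed it in 5 alternatives: Il12a for LysoPS-OVA against citrate buffer (below), and between the OVA libraries Tgfb1, also at 1.01 with at most 5% mitochondrial UMIs, and Lrrc32, at 1.17 by marker UMIs. With doublets kept, Il10 gave 0.537 and 5.15 (free OVA against citrate buffer and LysoPS-OVA against free OVA). With classes taken by marker UMIs, the ratios were 0.575 for Il10 (free OVA against citrate buffer), 0.424, 0.719 and 0.590 for Ebi3 (LysoPS-OVA and free OVA against citrate buffer, and LysoPS-OVA against free OVA), 1.16 and 1.41 for Il12a (LysoPS-OVA and free OVA against citrate buffer), 1.24 and 1.06 for Tgfb1 (LysoPS-OVA against citrate buffer and against free OVA) and 1.6 for Itgb8 (LysoPS-OVA against citrate buffer). By shares of barcodes they were 0.815 and 3.27 for Il10 (free OVA against citrate buffer and LysoPS-OVA against free OVA), 1.18 and 1.61 for Il12a (LysoPS-OVA and free OVA against citrate buffer), 1.36, 1.48 and 0.919 for Tgfb1 and 0.755 for Lrrc32 (free OVA against citrate buffer). Without the 5 highest barcodes Il10 gave 3.20 (LysoPS-OVA against citrate buffer) and 18.8 (against free OVA). The trim takes 5 of only 8 Il10-bearing barcodes in free OVA, so the second value is raised by construction. Ebi3 in whole-cell-like barcodes gave 0.722 and 0.726 against citrate buffer, and Itgb8 by the mean CPM of barcodes 1.27 (free OVA against citrate buffer) and 0.986 (LysoPS-OVA against free OVA). The cause of these moves was not tested.

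Shares in the main class are given in the order citrate buffer, free OVA and LysoPS-OVA. At resolution 2.0, where the largest B cluster is unnamed and the share falls by construction, Il12a gave 64.9%, 43.6% and 48.0% and Tgfb1 33.8%, 31.2% and 30.5%. With doublets kept, Il12a gave 71.9%, 82.3% and 84.9%, Tgfb1 38.2%, 54.4% and 53.6%, and Ebi3 54.2% in citrate buffer. In whole-cell-like barcodes, Ebi3 gave 25.1%, 17.1% and 9.43%, Il12a 87.3%, 94.4% and 93.3%, Tgfb1 48.0%, 66.7% and 59.1%, Itgb8 63.5%, 75.5% and 76.8%, Il10 33.3% in free OVA and Lrrc32 80.5% in citrate buffer. With at most 5% mitochondrial UMIs Tgfb1 gave 40.4% in citrate buffer and 54.9% in LysoPS-OVA.

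Counts of all genes past the fold fell by construction under each stricter setting, given as the main count, with at least 100 UMIs, with a 2-fold mark and with 10 CPM added. LysoPS-OVA against citrate buffer gave 1972, 994, 830 and 187 in B-like, 1570, 567, 394 and 297 in migratory DC-like and 1489, 638, 460 and 327 in regulatory T-like barcodes. Free OVA against citrate buffer gave 1922, 967, 808 and 165, then 3007, 1649, 876 and 610, then 1382, 560, 429 and 346 in the same classes. LysoPS-OVA against free OVA gave 1055, 381, 294 and 43, then 1882, 853, 483 and 391, then 837, 196, 193 and 72. Depth limits Il10 and Lrrc32 most, which had 11 and 31 UMIs in regulatory T-like barcodes of free OVA.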

Other observations

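Il27, which encodes the partner of Ebi3 in interleukin 27, had a ratio of 1.54 (1.02 to 2.36) for free OVA against citrate buffer in B-like barcodes, at 2.64 and 1.72 CPM, and of 0.571 (0.380 to 0.848) for LysoPS-OVA against free OVA. In the same class Socs3, an inhibitor induced by interleukin 10 among other cytokines, was 10.9 CPM in citrate buffer, 5.58 CPM with free OVA and 4.58 CPM with LysoPS-OVA, and Maf was 25.1, 10.1 and 11.4 CPM. T cell markers moved the same way in this class: the CD4 T markers (9 of 9 detected) summed to 387, 118 and 177 CPM and the regulatory T markers (8 of 8 detected) to 112, 55.3 and 58.5 CPM, and their part in these values was not tested. In migratory DC-like barcodes Batf, a transcription factor, was 39.1, 20.9 and 21 CPM, so that, as with Ebi3, both OVA libraries lay below citrate buffer. The CD4 T markers summed to 772, 370 and 548 CPM there, and their part in Batf was not tested.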
